A study of Homo sapiens with 6 samples.

Results

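Transcripts of 10 chemokines made by mucosal epithelium were measured by RNA sequencing in Ls174t cells, a mucin-secreting line derived from a human colorectal adenocarcinoma. The members are CCL20, CXCL1, CXCL2, CXCL3, CXCL5, CXCL8, CXCL16, CX3CL1, CCL28 and CCL15, chosen by gene symbol, and all 10 were found among 17563 gene rows with values. The RNF186 group was a stable Ls174t line overexpressing RNF186, a RING-type ubiquitin ligase of intestinal epithelium, and the Vector group was a control Ls174t line whose genotype label is Vector. Each line was split into 3 dishes, left untreated and harvested at 48 h in medium with 10% serum, so each group is 3 dishes of 1 line and p-values measure the spread between dishes of 1 line. Whether either line is a single clone, and which promoter drives RNF186, the sources used here do not say.

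Chemokines are small secreted proteins that guide leukocytes along a concentration gradient through G protein-coupled receptors. CCL20 acts on CCR6, which marks Th17 cells, B cells and immature dendritic cells, and in the gut it is made by the epithelium over lymphoid follicles. CXCL1, CXCL2, CXCL3, CXCL5 and CXCL8 carry the ELR motif, a short run of amino acids before the first cysteines, and draw neutrophils through CXCR2, CXCL8 also through CXCR1. CXCL16 and CX3CL1 are made as membrane-anchored proteins that can be shed, and bind CXCR6 and CX3CR1. CCL28 acts on CCR10 and CCR3 and is known for recruiting IgA-secreting cells to mucosa, and CCL15 acts on CCR1. Transcription of CCL20 and of the ELR chemokines is widely known to be driven by NF-kB and AP-1 in epithelial cells exposed to TNF, IL-1 or bacterial products.

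Upstream sequences of 7 members are shown so that CCL20 and the ELR chemokines can be read beside one another and beside CCL15. Of these, CXCL5 was below the filter on low values and got no call. RefSeq (GRCh38.p14) gave a promoter for 8 members, and CXCL16 and CX3CL1 had no entry. Each run is the 150 bases before the gene's start, 5′ to 3′ on the gene's strand, and capitals mark matches to the NF-kB consensus, to GGAATTTCC or to the AP-1 motif TGANTCA. The build belongs to the sequence table, and the build behind the FPKM values is not settled.
CCL20 (chr2:227813692-227813841, plus strand): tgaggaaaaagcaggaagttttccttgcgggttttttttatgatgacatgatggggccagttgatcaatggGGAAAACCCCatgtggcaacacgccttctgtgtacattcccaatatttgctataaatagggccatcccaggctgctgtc
CXCL1 (chr4:73869243-73869392, plus strand): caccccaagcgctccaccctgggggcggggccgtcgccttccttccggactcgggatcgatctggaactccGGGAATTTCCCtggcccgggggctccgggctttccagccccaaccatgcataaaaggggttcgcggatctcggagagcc
CXCL2 (chr4:74099196-74099345, minus strand): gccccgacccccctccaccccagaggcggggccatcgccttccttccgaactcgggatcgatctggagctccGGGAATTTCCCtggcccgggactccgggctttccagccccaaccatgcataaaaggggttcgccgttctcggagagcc
CXCL3 (chr4:74038690-74038839, minus strand): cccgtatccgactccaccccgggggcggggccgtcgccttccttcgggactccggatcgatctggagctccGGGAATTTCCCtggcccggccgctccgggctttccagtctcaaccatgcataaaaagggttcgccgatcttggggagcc
CXCL5 (chr4:73998678-73998827, minus strand): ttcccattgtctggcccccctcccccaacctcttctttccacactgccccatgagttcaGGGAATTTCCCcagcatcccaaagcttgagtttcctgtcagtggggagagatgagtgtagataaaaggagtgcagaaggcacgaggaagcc
CXCL8 (chr4:73740419-73740568, plus strand): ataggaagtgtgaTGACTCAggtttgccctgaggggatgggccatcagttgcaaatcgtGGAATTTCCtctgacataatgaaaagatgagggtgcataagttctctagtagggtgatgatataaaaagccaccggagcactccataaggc
CCL15 (chr17:36001554-36001703, minus strand): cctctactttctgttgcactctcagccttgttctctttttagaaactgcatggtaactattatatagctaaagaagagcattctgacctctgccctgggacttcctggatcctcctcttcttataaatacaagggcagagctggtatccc

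All 3 motifs were searched on both strands of the 250 bases before each start. The NF-kB consensus stood in CCL20, on its minus strand, and in CXCL1, CXCL2, CXCL3 and CXCL5, and 5.21% of 35116 promoters hold it. GGAATTTCC, which overlaps the consensus, stood in CXCL1, CXCL2, CXCL3, CXCL5 and CXCL8, and 0.413% of promoters hold it. TGANTCA stood in CXCL8 alone of these members, against 6.57% of promoters. CCL28, at either of its 2 listed starts, and CCL15 held none of the 3, which says only that these letters are not in this window. Over the 150 bases, CXCL1 was 88.7% identical with CXCL2 and 88.1% with CXCL3, and CXCL2 was 86.1% identical with CXCL3, while the other pairs among CCL20 and the 5 ELR chemokines lay between 37.4% and 50%. Thus CXCL1, CXCL2 and CXCL3 have closely related upstream sequence, and CXCL5, CXCL8 and CCL20 are much less alike outside the marked letters.

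Expression is given in FPKM (sequenced fragments scaled both to gene length and to the library's mapped fragments), so levels of different genes can be set side by side per length. Depth per library is unknown because FPKM holds no counts, and summed FPKM ran from 387478 to 396200 in the RNF186 group and from 398674 to 412391 in the Vector group. RNF186 itself was 452, 577 and 485 FPKM in the RNF186 libraries, against 0.69, 0.71 and 0.61 FPKM in the Vector libraries, as the labels say. The 8 epithelial markers were all above the filter, with sums from 4879 to 5282 FPKM in the RNF186 group and from 5983 to 6489 FPKM in the Vector group. These sums were mostly KRT8 and KRT18. EPCAM and CDH1 were called higher with RNF186 (log2 changes 0.20 and 0.15, limma adjusted p = 0.0140 and 0.0161). KRT8, KRT18, VIL1 and CDH17 were called lower (-0.41, -0.29, -0.51 and -0.39, limma adjusted p at most 0.00194), and KRT20 and MUC2 were not called. The extraction label speaks of retinas, but 5 of the 6 retina markers with values averaged under 1 FPKM and CRX, the remaining one, lay between 0.60 and 1.14 FPKM. Leukocytes also make these chemokines, so their markers matter here: of 7 with values, PTPRC, CD14, CD68 and LYZ were tested and CD3E, ITGAM and CSF1R were below the filter. PTPRC, the pan-leukocyte marker, was 2.34, 2.25 and 1.81 FPKM in the RNF186 libraries and 2.0, 1.95 and 2.30 FPKM in the Vector libraries, and was not called. CD14 and CD68 were called lower with RNF186 (log2 changes -0.37 and -0.33, limma adjusted p = 0.0103 and 0.00655), and LYZ was called higher (0.27, limma adjusted p = 0.00441). CSF1R was 0.33 to 0.40 FPKM in the RNF186 group and 0.06 to 0.15 FPKM in the Vector group, while ITGAM was at most 0.07 FPKM in any library and CD3E was at 0 FPKM in 5 of 6. The 7 leukocyte markers with values summed to 42.5 to 43.8 FPKM in the RNF186 group and 43.8 to 47.7 FPKM in the Vector group, mostly CD68 and LYZ, and their part in the results below was not tested. In a bulk culture, more cells making a transcript and more transcript per cell cannot be told apart. RNF186 replicate 2 stood apart from the other libraries on the second principal component, at 12.09 against -5.59 to 4.64, and leaving it out ended no call on a member.

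RNF186 cells carried more transcript of CCL20 and of 4 ELR chemokines than Vector cells, and less of CCL15. Of the 8 members that passed the filter of a mean of at least 1 FPKM, 5 rose, 1 fell and 2 did not pass the test (limma on log2(FPKM + 1), Benjamini-Hochberg adjusted p under 0.05). Each of the 8 also held at least 1 FPKM in every library, so none passed through 1 group alone. Over all 11632 tested genes, 38.8% were called, 19.9% higher and 18.9% lower with RNF186. Without RNF186 replicate 3 the genes called lower numbered 1435, against 2195 with all libraries. For 6 of the 8 members the libraries of both groups lay apart, against 49.5% of all tested genes, so such a separation is by itself common in these data. Under a scaling of every library to 1 FPKM sum, the share of higher among all calls was 63.1% in place of 51.3%, and the direction of each called member was the same.

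**Figure D1:**
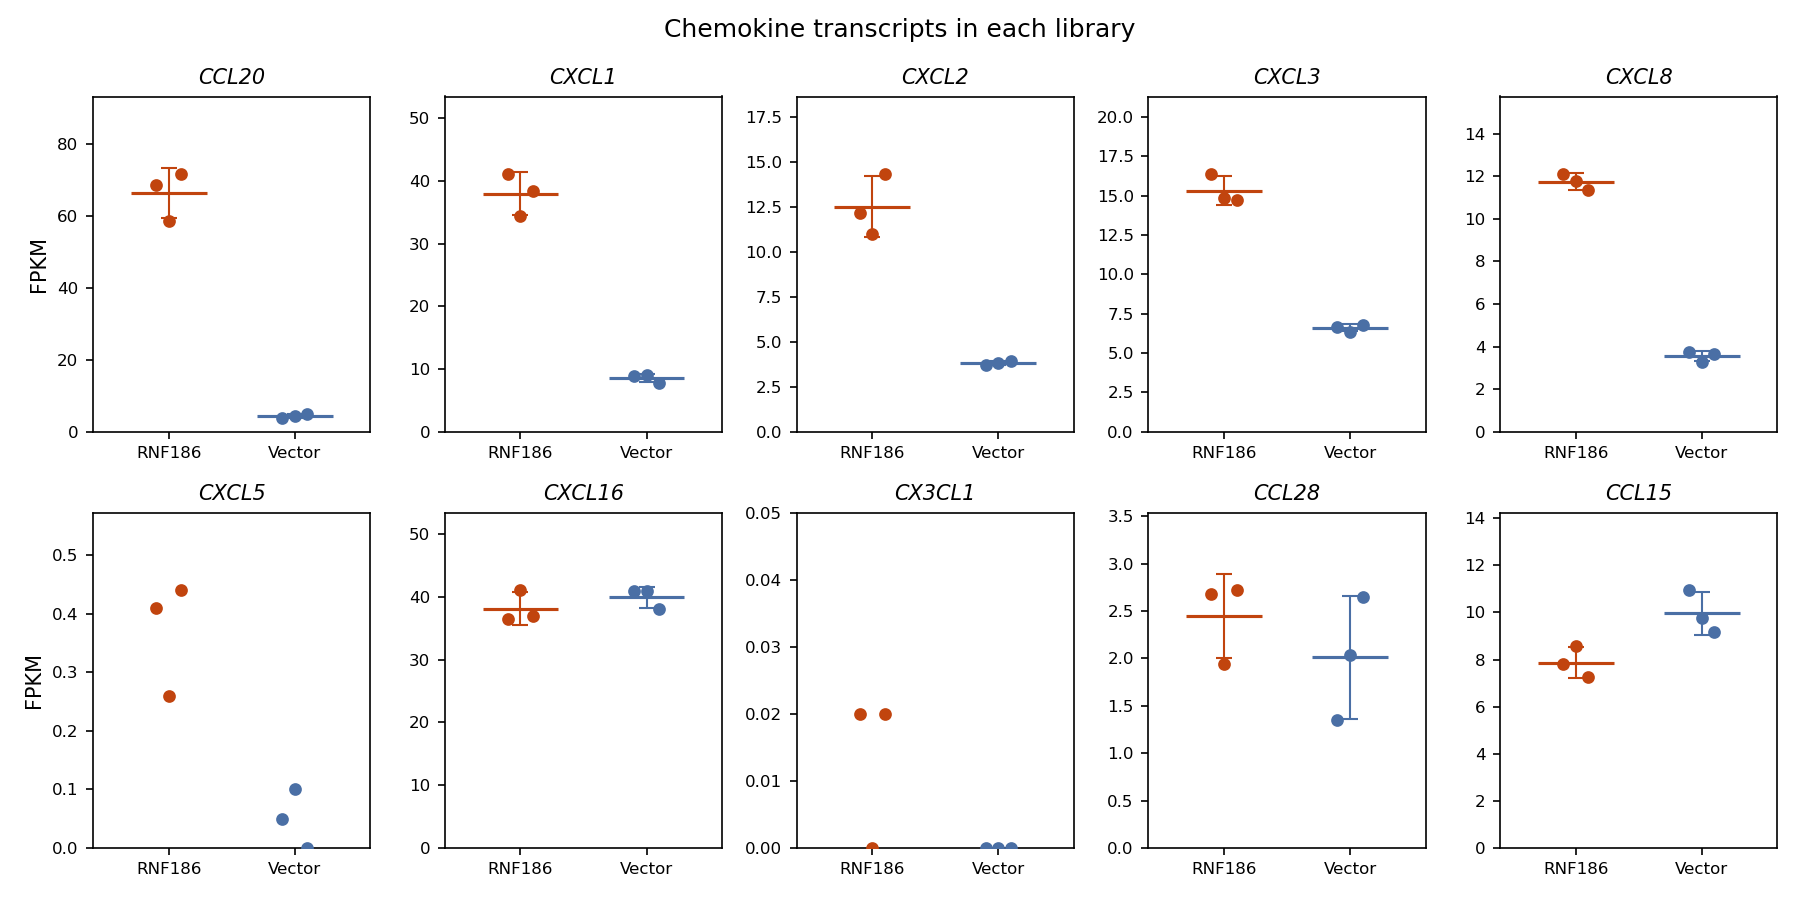
FPKM of the 10 chemokines (y axes from 0, 1 scale per gene) in the 3 RNF186 and the 3 Vector libraries. Points are libraries, and lines and bars are means ± SD, left out for CXCL5 and CX3CL1, which are listed at 0 in some libraries. The 3 RNF186 points of CCL20 and of CXCL1, CXCL2, CXCL3, CXCL5 and CXCL8 lie above every Vector point, CXCL16 and CCL28 overlap and CCL15 lies below.

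CCL20 (Entrez 6364), the ligand of CCR6, was 68.8, 58.6 and 71.8 FPKM in the RNF186 libraries, against 3.68, 4.41 and 4.85 FPKM in the Vector libraries. The groups lay far apart, and RNF186 replicate 2 was the lowest of its group. The means were 66.4 ± 6.90 FPKM in RNF186 cells and 4.31 ± 0.591 FPKM in Vector cells (SD, n = 3 each), a ratio of 15.4. The log2 change was 3.67 (SE 0.094, 95% interval 3.46 to 3.88, limma adjusted p = 4.75e-09), second only to RNF186 among the rises of the 11632 tested genes. The next member in that order was CXCL1, in 18th place. CCR6, its receptor, was 0.79, 0.80 and 0.86 FPKM in the RNF186 libraries, against 1.06, 0.80 and 0.91 FPKM in the Vector libraries, which overlap, and its mean was under the filter.

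CXCL1 (Entrez 2919), a neutrophil chemoattractant, was 41.1, 34.4 and 38.4 FPKM in the RNF186 libraries, against 8.85, 9.06 and 7.82 FPKM in the Vector libraries. Every RNF186 library was thus more than the highest Vector library, with a ratio of means of 4.42. The means were 38.0 ± 3.41 FPKM in RNF186 cells and 8.58 ± 0.664 FPKM in Vector cells (SD, n = 3 each), and the log2 change was 2.02 (SE 0.076, limma adjusted p = 4.43e-08).

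CXCL8 (Entrez 3576), or interleukin 8, the ELR chemokine that also binds CXCR1, was 12.1, 11.8 and 11.3 FPKM in the RNF186 libraries, against 3.74, 3.28 and 3.66 FPKM in the Vector libraries. The groups did not overlap, and CXCL8 varied less among the RNF186 libraries than any other member, its lowest library standing at 93.6% of its highest. The means were 11.8 ± 0.392 FPKM in RNF186 cells and 3.56 ± 0.246 FPKM in Vector cells (SD, n = 3 each), a ratio of 3.30 (log2 change 1.48, SE 0.066, limma adjusted p = 1.72e-07).

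CXCL2 (Entrez 2920), a close paralog of CXCL1 with the same receptor, was 12.2, 10.99 and 14.3 FPKM in the RNF186 libraries, against 3.68, 3.84 and 3.92 FPKM in the Vector libraries. The Vector libraries agreed closely, and the RNF186 libraries were more spread but all higher. The ratio of means was 3.28 and the log2 change 1.48 (SE 0.088, limma adjusted p = 1.35e-06), a size close to that of CXCL8.

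CXCL3 (Entrez 2921), the third of these paralogs, was 16.4, 14.8 and 14.7 FPKM in the RNF186 libraries, against 6.66, 6.34 and 6.79 FPKM in the Vector libraries. Its rise was the smallest of the 5, with means of 15.3 ± 0.923 FPKM in RNF186 cells and 6.60 ± 0.232 FPKM in Vector cells (SD, n = 3 each) and a ratio of 2.32 (log2 change 1.10, SE 0.062, limma adjusted p = 9.85e-07).

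CXCL5 (Entrez 6374), an ELR chemokine of epithelial cells, was scarce, at 0.41, 0.26 and 0.44 FPKM in the RNF186 libraries and 0.05, 0.10 and 0 FPKM in the Vector libraries. It was under the filter and got no call. All RNF186 libraries were higher, and the exact permutation test gave a two-sided p = 0.1, the smallest that 3 against 3 allows. With no filter on low values, limma gave an adjusted p = 0.00470 for CXCL5.

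**Figure D2:**
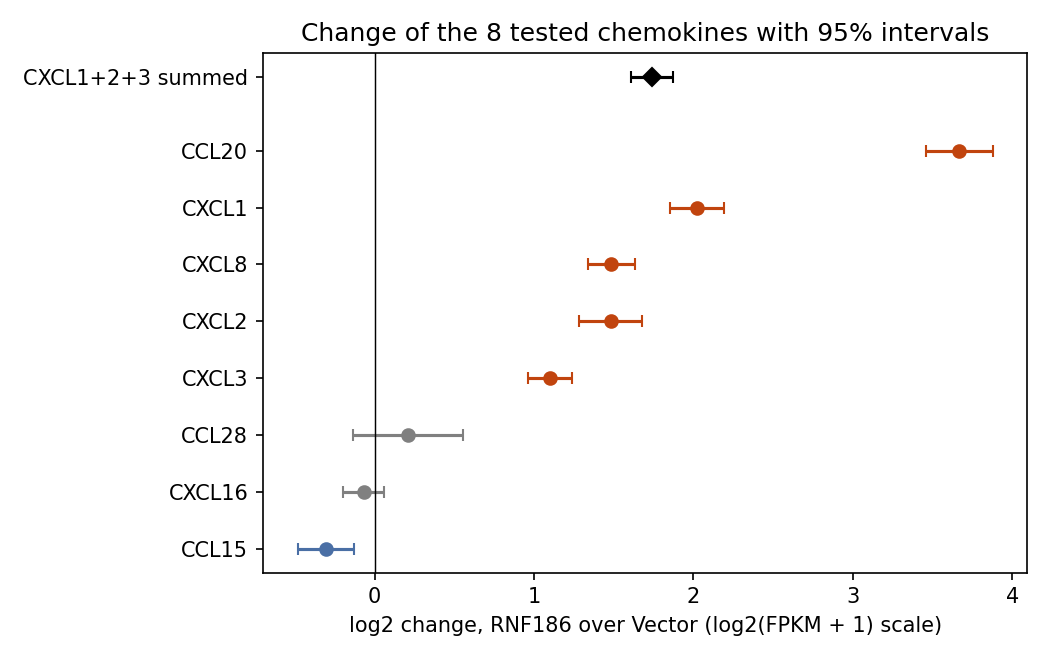
Log2 change of the 8 tested chemokines, RNF186 over Vector, on the log2(FPKM + 1) scale, with 95% intervals from limma. Orange marks higher, blue lower and grey not called, and the diamond is the sum of CXCL1, CXCL2 and CXCL3. CCL20 stands at 3.67, the ELR chemokines between 1.10 and 2.02, and the intervals of CCL28 and CXCL16 include 0.

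CXCL1, CXCL2 and CXCL3 are similar genes, and the sources used here do not say how reads shared between them were split. The longest protein-coding transcript (GENCODE release 29) of each of the 5 ELR members was read in 50-base windows. Of these, 9.24% in CXCL2, 5.73% in CXCL1 and 5.26% in CXCL3 also occur in another of the 5, and none in CXCL5 or CXCL8. Transcripts outside these 5, such as that of CXCL6, were not compared. Summed over the 3 paralogs, the level was 69.7, 60.2 and 67.4 FPKM in the RNF186 libraries, against 19.2, 19.2 and 18.5 FPKM in the Vector libraries. The sum rose by a log2 change of 1.74 (SE 0.059, 95% interval 1.61 to 1.87, limma adjusted p = 2.49e-08). The sum lessens the effect of how shared reads were split but does not remove it, since the 3 genes differ in length and shared reads may have been dropped or counted more than once.

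The ratios of CXCL1 to CXCL3 and to CXCL2 were also higher in the RNF186 libraries, as a description of these libraries. The CXCL1 to CXCL3 ratio was 2.51, 2.32 and 2.60 in the RNF186 libraries, against 1.33, 1.43 and 1.15 in the Vector libraries, without overlap. The ratio of CXCL1 to CXCL2 was 3.38, 3.13 and 2.68 in the RNF186 libraries, against 2.40, 2.36 and 1.99 in the Vector libraries, again without overlap. The log2 differences were 0.93 for CXCL1 to CXCL3 and 0.44 for CXCL1 to CXCL2. Each gave a two-sided p = 0.1 by the exact permutation test, also adjusted over the 2 ratios, and no smaller p is possible with 3 against 3.

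The 5 ELR members lie in 1 cluster on chromosome 4, and its other chemokine genes were barely detected. In chromosome order, by RefSeq, the protein-coding genes are CXCL8, CXCL6, PF4V1, CXCL1, PF4, PPBP, CXCL5, CXCL3 and CXCL2. CXCL6, PF4V1, PF4 and PPBP, which encode further ELR chemokines and platelet chemokines, were each at or below 0.22 FPKM in every library. On the CXCL8 side, RASSF6 was 4.31, 3.66 and 4.50 FPKM in the RNF186 libraries, against 3.17, 3.53 and 3.20 FPKM in the Vector libraries. Its log2 change of 0.26 was called (limma adjusted p = 0.0318), but not when any of the libraries other than Vector replicate 2 and RNF186 replicate 2 was left out, where adjusted p ran up to 0.1195. On the CXCL2 side, MTHFD2L, a mitochondrial folate enzyme, fell by 0.40 and the growth factor gene EREG fell by 0.26 on the log2 scale (limma adjusted p = 0.00378 and 0.00706). These neighbours were chosen by position.

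**Figure D3:**
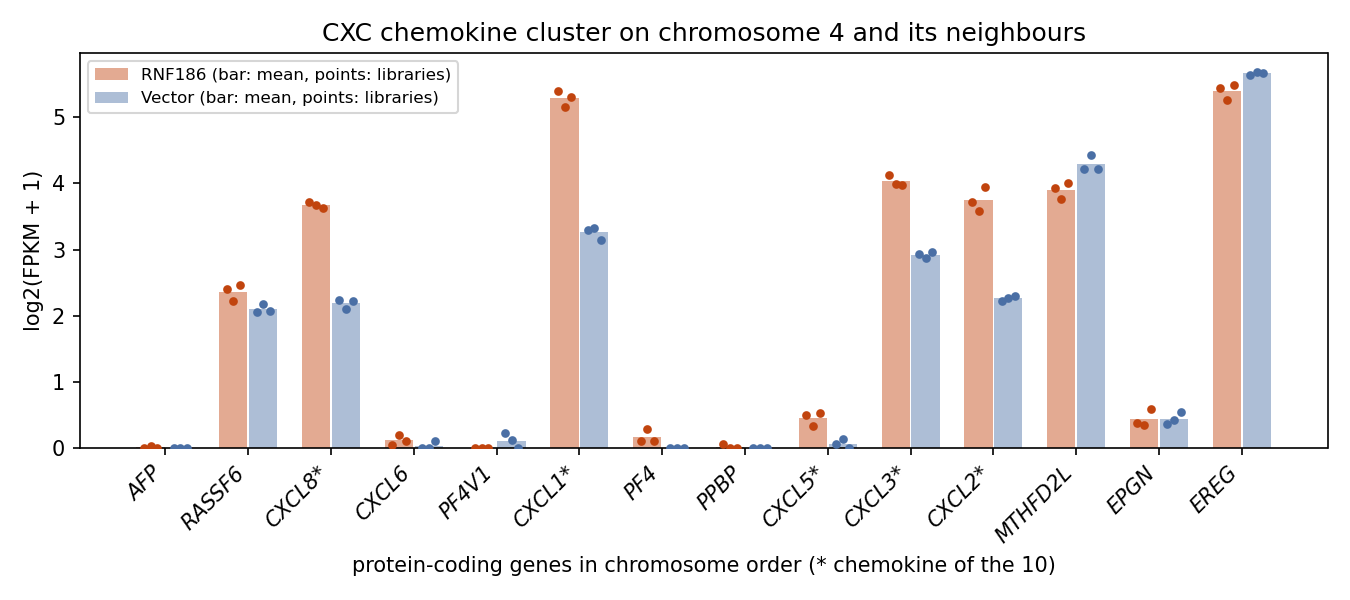
Levels as log2(FPKM + 1) along chromosome 4, by gene order only. Bars are group means, RNF186 left and Vector right for each gene, points are libraries, and asterisks mark the chemokines described here. CXCL8, CXCL1, CXCL3 and CXCL2 are higher with RNF186, while CXCL6, PF4V1, PF4 and PPBP stay near 0 and MTHFD2L and EREG are lower.

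CXCL16 (Entrez 58191), the membrane-anchored ligand of CXCR6, was among the most abundant members in both groups. It was 36.4, 41.1 and 36.9 FPKM in the RNF186 libraries, against 41.0, 40.9 and 38.1 FPKM in the Vector libraries, and the groups overlapped. The log2 change was -0.07 with a 95% interval from -0.20 to 0.06 (limma adjusted p = 0.390). With libraries weighted by their fit (array weights) the change was -0.11 and was called (limma adjusted p = 0.0411). Calls were more common in general under those weights, at 6376 of the 11632 tested genes against 4509 in the main fit. CX3CL1 (Entrez 6376), the other membrane-anchored member, was 0.02, 0 and 0.02 FPKM in the RNF186 libraries and listed at 0 in all Vector libraries, too low to compare.

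CCL28 (Entrez 56477), a mucosal chemokine, was low and variable, at 2.68, 1.94 and 2.72 FPKM in the RNF186 libraries and 1.35, 2.03 and 2.65 FPKM in the Vector libraries. The groups overlapped, and the log2 change of 0.21 had a 95% interval from -0.13 to 0.55 (limma adjusted p = 0.309). It was 0.04 without Vector replicate 1 and 0.36 without Vector replicate 3, and 0.32 without RNF186 replicate 2. The spread among the Vector libraries was wide, with the lowest at 50.9% of the highest.

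CCL15 (Entrez 6359), a ligand of CCR1, was the only member to fall. It was 7.80, 8.57 and 7.24 FPKM in the RNF186 libraries, against 10.95, 9.75 and 9.18 FPKM in the Vector libraries, and the groups did not overlap. The means were 7.87 ± 0.668 FPKM in RNF186 cells and 9.96 ± 0.903 FPKM in Vector cells (SD, n = 3 each), a log2 change of -0.30 (SE 0.080, 95% interval -0.48 to -0.13, limma adjusted p = 0.0137). The call was lost without Vector replicate 1 (limma adjusted p = 0.0551) or without RNF186 replicate 3 (limma adjusted p = 0.0578). RefSeq also lists a read-through gene that joins CCL15 to its neighbour CCL14, so the value of CCL15 is uncertain. CCL14 was 4.36, 3.44 and 3.42 FPKM in the RNF186 libraries and 6.24, 2.94 and 4.0 FPKM in the Vector libraries, which overlap.

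The make-up of the chemokine transcripts therefore differed between the lines. The 10 members summed to 198, 182 and 198 FPKM in the RNF186 libraries, against 80.0, 79.7 and 76.9 FPKM in the Vector libraries. CCL20 made up 34.4 ± 2.10% of that sum in RNF186 cells and 5.48 ± 0.853% in Vector cells (SD, n = 3 each). CXCL16 made up 19.9 ± 2.31% in RNF186 cells and 50.7 ± 1.05% in Vector cells (SD, n = 3 each), so the leading transcript was CCL20 with RNF186 and CXCL16 with Vector. The 5 ELR chemokines held 40.4 ± 1.02% in RNF186 cells and 28.7 ± 0.241% in Vector cells, and CCL15 held 4.10 ± 0.537% in RNF186 cells and 12.6 ± 0.939% in Vector cells (SD, n = 3 each). A share falls when the others rise, so the lower share of CXCL16 goes with a level that was not called.

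**Figure D4:**
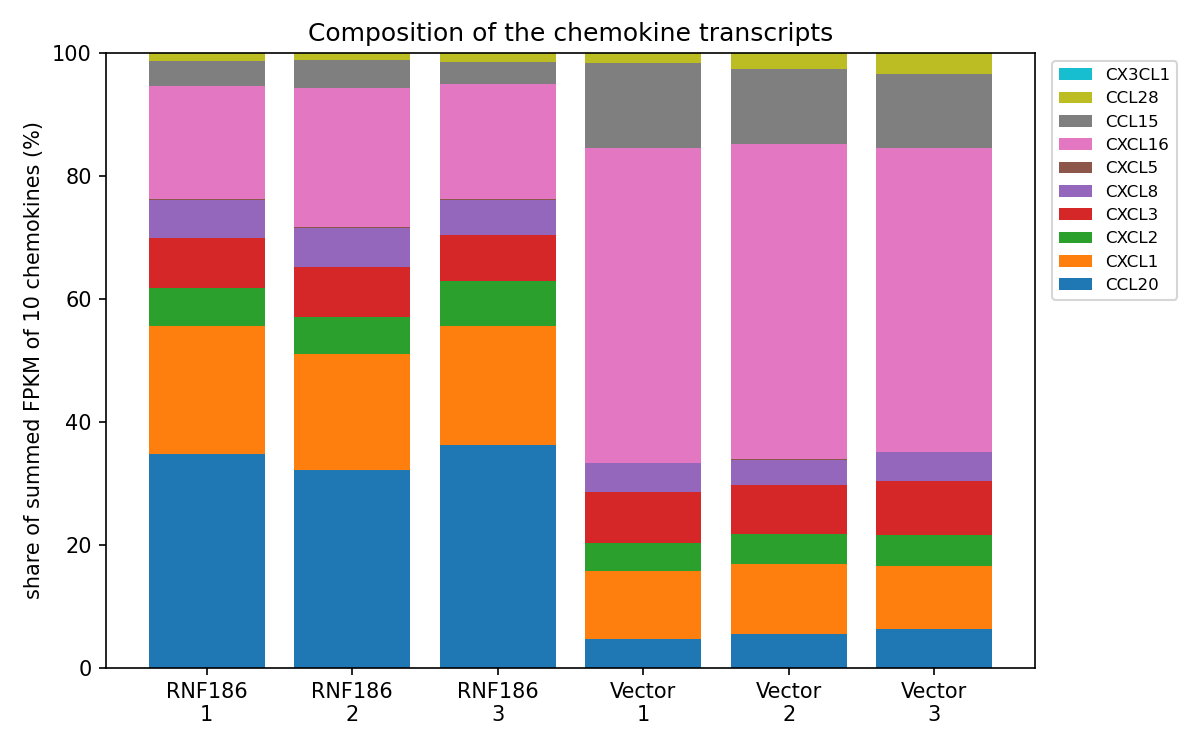
Share of the summed FPKM of the 10 chemokines (y axis, %) in each library, with the 3 RNF186 libraries left of the 3 Vector libraries. CCL20 takes 32.1 to 36.3% in the RNF186 libraries and 4.60 to 6.31% in the Vector libraries, and CXCL16 takes 18.4 to 22.5% in the RNF186 libraries and 49.5 to 51.3% in the Vector libraries.

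By mean level in RNF186 cells, CCL20 was highest, then CXCL16 and CXCL1, CXCL3, CXCL2 and CXCL8, CCL15, CCL28, CXCL5 and CX3CL1. The libraries of CXCL16 and CXCL1 overlapped there, as did those of CXCL2 and CXCL8, so these pairs have no order. In Vector cells the order was CXCL16, CCL15, CXCL1, CXCL3, then CCL20, CXCL2 and CXCL8, then CCL28, CXCL5 and CX3CL1. CCL20 overlapped CXCL2, CXCL2 overlapped CXCL8 and CXCL5 overlapped CX3CL1 in Vector cells. Thus CCL20 was level with CXCL2 in Vector cells and stood above every other member in RNF186 cells.

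Within the RNF186 group the libraries also varied together in part. Replicate 2 had the lowest CCL20, CXCL1, CXCL2, CXCL5 and CCL28 and the highest CXCL16 and CCL15, and it is the library that stood apart on the second principal component. Its RNF186 level, 577 FPKM, was the highest of the group. CXCL3 and CXCL8, by contrast, were lowest in replicate 3. The lowest library was 81.7% of the highest for CCL20, 83.5% for CXCL1, 76.7% for CXCL2 and 89.9% for CXCL3. For these 4 genes the differences within the group are small beside those between the groups, whereas for CXCL16 and CCL28 they exceed the difference between the group means.

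The genes whose log2(FPKM + 1) followed CCL20 most closely over the 6 libraries were TNFRSF11B, a decoy receptor of the TNF family (Pearson r = 0.9998), NWD2 (r = 0.9996) and JAKMIP3 (r = 0.9996). TNFRSF11B was 8.24, 7.69 and 8.47 FPKM in the RNF186 libraries, against 1.63, 1.76 and 1.81 FPKM in the Vector libraries. NWD2 averaged 2.65 FPKM in RNF186 cells and 0.49 FPKM in Vector cells, and JAKMIP3 averaged 2.19 and 0.83 FPKM. Both passed the filter only through the RNF186 group. With 6 libraries in 2 groups far apart, r mostly reflects the step between the groups and is given as a description, with no p.

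Few other chemokine ligands reached the filter. Of 36 further ligands, 23 had values and 6 were tested, of which 1 rose, none fell and 5 were not called. Their median log2 change was 0.07, against -0.0046 over all tested genes, of which 19.9% were called higher and 18.9% lower. The one that rose was CXCL14, a chemokine of epithelia, at 3.0, 3.10 and 3.19 FPKM in the RNF186 libraries and 0.72, 0.90 and 0.93 FPKM in the Vector libraries. Its log2 change was 1.15 (SE 0.081, limma adjusted p = 4.47e-06), and it passed the filter only through the RNF186 group. With a pseudocount of 0.1 the change of CXCL14 was 1.76. Of 22 chemokine receptors with values, 21 averaged under 1 FPKM, and the tested one, CCRL2, a receptor that does not signal, was 5.35, 5.75 and 5.70 FPKM in the RNF186 libraries and 6.57, 4.81 and 5.64 FPKM in the Vector libraries (not called). Neither CXCR1 nor CXCR2, the receptors of the ELR chemokines, reached the filter. CXCR4, also under the filter and named after its values were seen, was 1.04, 1.22 and 1.20 FPKM in the RNF186 libraries. It was 0.41, 0.23 and 0.26 FPKM in the Vector libraries. With a minimum mean of 0.5 FPKM, 1 of 5 tested receptors was called higher and 0 lower. Of all 12427 genes tested at that minimum, 2429 were called higher and 2226 lower.

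Among genes linked to shedding or trimming of chemokines, 8 were tested, of which 1 rose, 1 fell and 6 were not called (median log2 change -0.03). Calls over all tested genes were 19.9% higher and 18.9% lower. MMP14, a membrane metalloproteinase, was 15.7, 17.7 and 15.0 FPKM in the RNF186 libraries and 10.3, 9.87 and 10.7 FPKM in the Vector libraries (log2 change 0.60, limma adjusted p = 0.000124). ADAM9 fell by 0.32 on the log2 scale (limma adjusted p = 0.000931). ADAM10 and ADAM17, the main sheddases of CXCL16 and CX3CL1, were not called, with log2 changes of -0.02 and 0.12. They were named after their values were seen.

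Among 20 transcription regulators of chemokine genes, 7 rose, 2 fell and 11 were not called (median log2 change 0.03). The shares over all tested genes were 19.9% higher and 18.9% lower. The clearest rises were in NFKBIA, the inhibitor of NF-kB that NF-kB itself induces, and in RELB, NFKBIZ and NFKB2, further members of the NF-kB and IkB families. NFKBIA was 33.0, 35.1 and 32.9 FPKM in the RNF186 libraries, against 19.6, 20.7 and 21.0 FPKM in the Vector libraries (log2 change 0.70, limma adjusted p = 5.98e-06). RELB was 2.54, 3.73 and 2.92 FPKM in the RNF186 libraries, against 0.89, 0.81 and 1.00 FPKM in the Vector libraries (log2 change 1.09, limma adjusted p = 5.38e-05), and passed the filter only through the RNF186 group. With a pseudocount of 0.1 the change of RELB was 1.65. NFKBIZ and NFKB2 each had a log2 change of 0.54 (limma adjusted p = 0.000499 and 0.00135). NFKB1 and RELA, the subunits of the classical dimer, were not called, with log2 changes of 0.06 and -0.15, and without RNF186 replicate 2 RELA was called lower (limma adjusted p = 0.00476). Of the other called regulators, JUND kept its call with any library left out, while BCL3, CREB1, NFKBIE and ELF3 each lost it without Vector replicate 1 and without Vector replicate 3. BCL3, CREB1 and ELF3 also lost it without Vector replicate 2, CREB1 and ELF3 without RNF186 replicate 1, BCL3 without RNF186 replicate 2, and BCL3 and ELF3 without RNF186 replicate 3, with limma adjusted p up to 0.138. These regulators, NFKB1 and RELA were named after their values were seen.

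Of 12 factors that govern decay of chemokine mRNA, 2 rose, 3 fell and 7 were not called (median log2 change -0.0030). These counts are near the shares over all tested genes, 19.9% called higher and 18.9% lower. The rises were in TIA1, a translational repressor that binds AU-rich elements (log2 change 0.47, limma adjusted p = 0.000686), and ZC3H12A, an endonuclease that degrades inflammatory mRNAs (0.39, limma adjusted p = 0.00523). The falls were in ZFP36L2 (-0.28, limma adjusted p = 0.00187), KHSRP (-0.27, limma adjusted p = 0.00568) and ZFP36 (-0.25, limma adjusted p = 0.0127), each of which binds AU-rich elements and promotes decay. The call on ZFP36 was lost without Vector replicate 2 (limma adjusted p = 0.0582), and ZFP36 was named after its values were seen.

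Of 25 cytokines and receptors upstream of chemokine genes, 17 were tested, of which 5 rose, 4 fell and 8 were not called. Beside them, 19.9% of all tested genes were called higher and 18.9% lower. The median log2 change of the list was 0.14. The median was 0.07 without Vector replicate 2, 0.07 without RNF186 replicate 2 and 0.04 under quantile normalization. TNF was 2.32, 2.52 and 2.45 FPKM in the RNF186 libraries, against 0.18, 0.08 and 0.30 FPKM in the Vector libraries (log2 change 1.54, limma adjusted p = 1.69e-06). LTB, the lymphotoxin beta chain, was 2.83, 4.38 and 3.64 FPKM in the RNF186 libraries, against 0.60, 0.23 and 0.37 FPKM in the Vector libraries (log2 change 1.72, limma adjusted p = 9.94e-06). TNF and LTB passed the filter only through the RNF186 group, and the sizes of their changes depend on the pseudocount. With a pseudocount of 0.1 the log2 changes were 3.22 for TNF and 2.94 for LTB. IFNGR1, the interferon gamma receptor, rose by a log2 change of 0.36 (limma adjusted p = 0.000328), and IL18 fell by 0.37 on the log2 scale (limma adjusted p = 0.000917). MYD88 and TLR3 were also called higher (log2 changes 0.26 and 0.40, limma adjusted p = 0.00528 and 0.00784). The receptors TNFRSF1A, LTBR and IL22RA1 were called lower (-0.26, -0.27 and -0.39, limma adjusted p = 0.00424, 0.0104 and 0.00566). MYD88, TLR3 and these receptors were named after their values were seen.

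**Figure D5:**
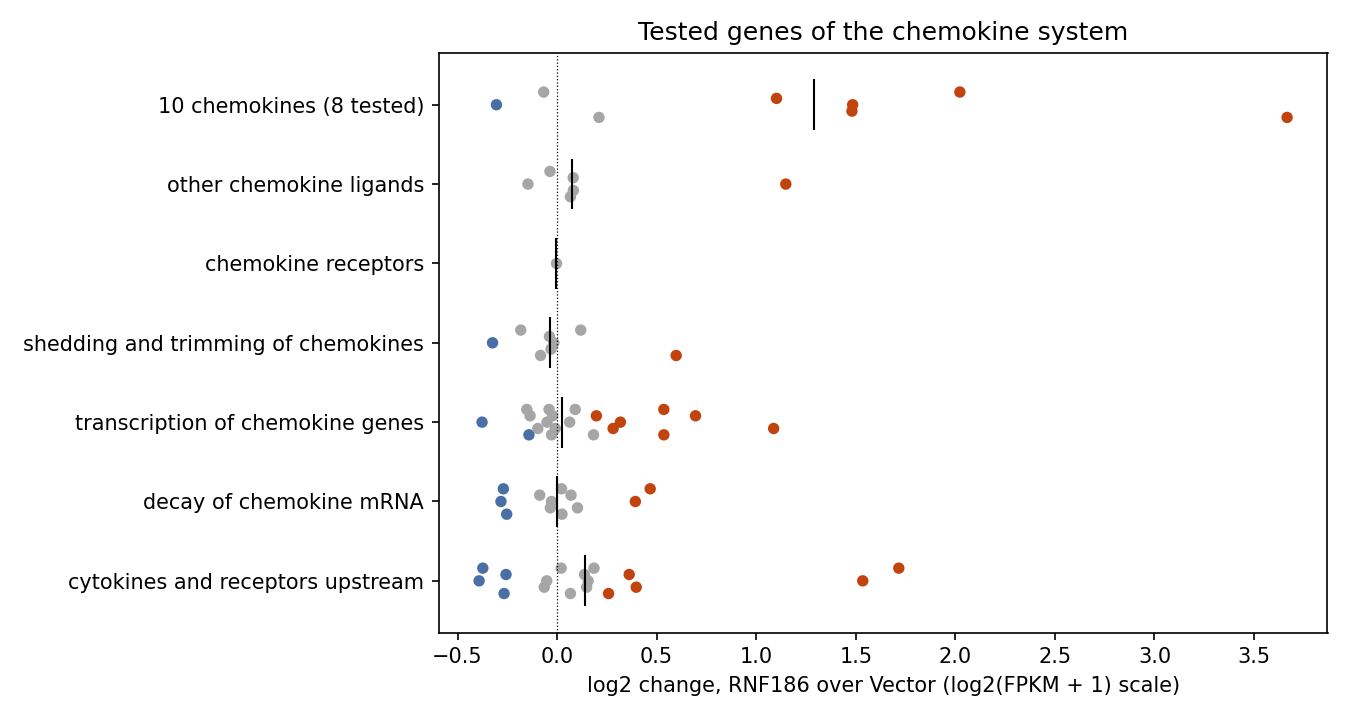
Log2 change (x axis, RNF186 over Vector) of the tested genes in the chemokine members and in 6 lists of the chemokine system, 1 row each. Points are genes, orange higher, blue lower and grey not called, and the black line is the median of the row. CCL20 at 3.67 lies far to the right of every other gene, and the medians of the 6 other lists lie between -0.03 and 0.14.

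The motifs shown above also stand before many other tested genes. Of 9599 tested genes with a RefSeq promoter, 19.5% were called higher. Of the 49 tested genes with GGAATTTCC, 15 were called higher (30.6%), and without the chemokine members it was 11 of 45 (24.4%). Of the 763 with the NF-kB consensus, 184 were called higher (24.1%), and without the chemokine members it was 180 of 759 (23.7%). Of the 578 with TGANTCA, 155 were called higher (26.8%), and without the members it was 154 of 577 (26.7%). The shares called lower were 8.16% with GGAATTTCC, 18.3% with the NF-kB consensus and 18.3% with TGANTCA, against 18.7% of the 9599. The shares describe these promoters and were not tested.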

How the data were processed

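RNA from 3 RNF186 and 3 Vector dishes was measured by RNA sequencing, and the authors deposited 1 table of FPKM per gene. Bowtie 0.12.2 and the mouse builds mm8 and mm9 are named, per the submitters' processing notes, against human labels and human Entrez identifiers, so the build is not settled. The counting program and annotation are not given in the sources used here. Of 19485 rows, 1 named no gene and 1921 had no value, and 17524 of the 17563 with values matched a RefSeq symbol.

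Values were analysed as log2(FPKM + 1) in limma 3.58.1 (R 4.3.3, moderated variances following mean expression, two-sided tests) over the 11632 genes that averaged 1 FPKM or more, with Benjamini-Hochberg adjustment over all, called under 0.05. The pseudocount of 1 understates changes of low genes. Ratios were tested by exact permutation in SciPy 1.17.1. Promoters were aligned globally (match 2, mismatch -1, gap open -5, extend -0.5). The script was tested on simulated data.

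The members and lists were chosen with earlier results of these data known. The text names all members, RNF186 and TNF, up to 4 called genes per list by p (else the 2 highest), and the 3 genes most like CCL20. Neighbours, markers and a few other list genes are named besides. Alternatives were other pseudocounts, filters, scalings, variance models, array weights, a replicate block, a stricter threshold, leaving out each library and summing paralogs. Replicate numbers were not used as pairs in the main fit, and no count test was run since the files hold no counts.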

Additional observations from a re-analysis of the deposited data

How the results depend on the processing

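The calls on CCL20, CXCL1, CXCL2, CXCL3, CXCL8 and the summed paralogs kept their direction and side of the threshold under every alternative run, with log2 changes of 3.58 to 3.92 for CCL20 and 1.06 to 1.20 for CXCL3. The number of members called was 5 to 6 with 1 library left out and 4 to 7 otherwise, 4 being the setting with CXCL1, CXCL2 and CXCL3 as 1 row and 7 arising without a filter (CXCL5) and with array weights (CXCL16). Genes called over the whole table were 2586 at an adjusted p under 0.01, against 4509 at 0.05. They numbered 3160 to 5669 with 1 library left out and 6376 with array weights. CCL15 had a log2 change of -0.24 without Vector replicate 1 and -0.25 without RNF186 replicate 3, and lost its call there and at 0.01. With a replicate block, 6 members and 4037 genes were called. Same-numbered dishes deviated together by r = -0.274, -0.069 and 0.255. With 3 dishes per group this cannot settle whether the numbers pair the dishes. RASSF6, CREB1 and ELF3 lost their calls under the block. The uncalled ADAM10 changed sign to 0.0154 under quantile normalization, 0.0319 under TPM rescaling and 0.0290 with array weights, and lay between -0.0539 and 0.0435 with 1 library left out. The uncalled CCRL2 changed sign to 0.0341 under TPM rescaling and 0.0689 with array weights, and lay between -0.104 and 0.0871 with 1 library left out. BCL3, NFKBIE, RASSF6 and ELF3 also lost calls under quantile normalization, ELF3 under TPM rescaling and with no mean-variance trend, and BCL3, CREB1 and RASSF6 with no filter on low values. The cause was not tested. Depth is unknown, so no limit can be set for the values listed at 0. The number of genes tested in a list depends on the filter. With no filter on low values, 3 of 22 other ligands were called higher and 2 lower (1 and 0 of 6 with it). Receptors numbered 3 of 22 higher (0 of 1 with it), and shedding and trimming genes 3 of 11 lower (1 of 8 with it). In the whole table, 2470 of 17087 genes were called higher and 1907 lower with no filter, against 2314 and 2195 of 11632 with it. The cytokines and receptors upstream called higher numbered 10 of 25 with no filter and 2 of 7 with a minimum mean of 5 FPKM, against 5 of 17. In the whole table, 1766 of 9169 genes were called higher with that minimum. Transcription regulators called higher numbered 4 of 16 with that minimum, against 7 of 20 in the main fit. They numbered 4 of 20 without Vector replicate 1 and 4 of 20 without Vector replicate 3. Of all 11632 tested genes, 1764 were called higher without Vector replicate 1, against 2314 in the main fit. Transcription regulators called lower ran from 1 to 3, against 2. List medians ran from -0.05 to 0.13 for other ligands, -0.09 to 0.0014 for shedding, -0.02 to 0.09 for transcription, -0.04 to 0.04 for decay and 0.04 to 0.18 upstream.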
